A study of Homo sapiens with 4 samples.

Results

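The miR-30 family hairpins are 6 microRNA precursors at 3 places in the human genome: MIR30E and MIR30C1 on chromosome 1, MIR30A and MIR30C2 on chromosome 6, and MIR30B and MIR30D on chromosome 8. RNA held by the proteins AGO1 and AGO2 was mapped at them by PAR-CLIP in HEK293, a human embryonic kidney cell line. A region of the deposited list was taken as a member if it overlapped a hairpin, or the 2 kb on either side of it, on the same strand of the genome build hg19. By this rule 15 of 211947 regions were members, of which 10 overlapped a hairpin and 5 lay only in a flank. All 6 hairpins held at least 1 region.

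The libraries were 3 from AGO1 and 1 from AGO2. For AGO1, cells that stably expressed the protein with a His/FLAG/HA tag were fed 200 µM 4-thiouridine for 16 h, and the protein was precipitated with an antibody to FLAG. For AGO2, HEK293 cells were fed 100 µM 4-thiouridine for 16 h, and the antibody, 11A9, was against AGO2. The AGO2 label names no tag, although the series' design text speaks of tagged lines for both proteins. All cells were crosslinked at 365 nm. A tagged protein expressed from a stable insert need not be present at the level of the cell's own Argonaute. The list gives 1 score for each region and no value for a single library. Which of the libraries it draws on is not named in the files or labels. AGO1 and AGO2 therefore cannot be told apart, no value below has a replicate error, and the depth of each library is unknown. What the score counts is not stated either. It is a whole number from 1 to 1000, and it is given here as the authors' own value.

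A microRNA gene is transcribed as a long RNA that folds into a hairpin. The enzyme Drosha cuts the hairpin out, Dicer removes its loop, and 1 strand of the remaining duplex is kept by an Argonaute protein as a guide. The strand from the 5′ side of the hairpin is called 5p and that from the 3′ side 3p. The guide finds its targets mainly through its seed, bases 2 to 8. miR-30 microRNAs are known as abundant in kidney epithelium, where they are needed for podocytes. PAR-CLIP recovers RNA held by a protein, so with Argonaute it yields the guides themselves as well as their targets, and a region on a hairpin can hold reads of either strand or of the precursor.

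The mature sequences of the 4 hairpins with RefSeq sequence, MIR30A, MIR30E, MIR30C1 and MIR30C2, fall into 3 seed groups. They are shown because reads that lie within a mature strand can be told apart only where these sequences differ. They are RefSeq sequences of build GRCh38.p14, and capitals mark the seed. The 5p strands of MIR30A, MIR30E, MIR30C1 and MIR30C2 share 1 seed.
hsa-miR-30a-5p: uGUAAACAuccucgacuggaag
hsa-miR-30e-5p: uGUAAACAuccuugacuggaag
hsa-miR-30c-5p: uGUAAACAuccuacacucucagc
The 3p strands of MIR30A and MIR30E share another seed.
hsa-miR-30a-3p: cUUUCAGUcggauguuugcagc
hsa-miR-30e-3p: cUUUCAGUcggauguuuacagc
The 3p strands of the MIR30C hairpins share the third.
hsa-miR-30c-1-3p: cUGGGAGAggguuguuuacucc
hsa-miR-30c-2-3p: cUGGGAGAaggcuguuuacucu

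Positions in a mature sequence are counted from 1 at its 5′ end. miR-30a-5p and miR-30e-5p differ by 1 of 22 bases, C13U from a to e, and their 3p partners likewise by 1 of 22, G18A. miR-30c-2-3p and miR-30c-1-3p differ by 3 of 22 bases, A9G, C12U and U22C. miR-30c-5p is the same sequence from MIR30C1 and MIR30C2. The run of bases that both MIR30C hairpins share there is 27 nt long and reaches past the mature end toward the loop. How the authors placed reads that match more than 1 locus is not stated. Of the 2370 mature human sequences in the RefSeq table, none outside the family has the seed of the 5p strands or that of miR-30a-3p and miR-30e-3p. The seed of the MIR30C 3p strands was also found in hsa-miR-6788-5p.

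The hairpins follow with the bases covered by a deposited region in capitals, to show how closely the regions trace the mature strands. Each RefSeq hairpin has the same length as its hg19 interval. The distance between starts was also the same in both builds, 2929 nt for MIR30E and MIR30C1 and 26591 nt for MIR30C2 and MIR30A. Positions in a hairpin are counted from 1 at its 5′ base.
MIR30A: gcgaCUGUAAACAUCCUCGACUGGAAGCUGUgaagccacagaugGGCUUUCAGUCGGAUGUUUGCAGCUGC
MIR30E: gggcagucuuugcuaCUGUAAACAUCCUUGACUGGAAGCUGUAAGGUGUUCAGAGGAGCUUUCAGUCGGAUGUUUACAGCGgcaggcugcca
MIR30C2: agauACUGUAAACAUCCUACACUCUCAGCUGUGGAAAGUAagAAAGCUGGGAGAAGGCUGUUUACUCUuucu
MIR30C1: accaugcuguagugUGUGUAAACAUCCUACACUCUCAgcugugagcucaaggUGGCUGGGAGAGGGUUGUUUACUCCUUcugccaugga
MIR30B and MIR30D are described by position alone.

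The strongest signal lay on MIR30E, the precursor of miR-30e-5p and miR-30e-3p (chr1:41220027-41220118, plus strand, 92 nt). A single region of 66 nt had a score of 248 there (chr1:41220042-41220107). It began 1 nt before miR-30e-5p, ran through the loop and ended 1 nt after miR-30e-3p. All 22 bases of each mature strand were covered, while the outer stem on both sides was not. By score it ranked 111 from the top among the 211947 regions.

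MIR30D showed the same shape on chromosome 8 (chr8:135817119-135817188, minus strand, 70 nt). Its 1 region was 63 nt wide (chr8:135817121-135817183), covered positions 6 to 68 of the hairpin, or 90.0% of it, and had a score of 137. MIR30E and MIR30D thus had the widest and the highest-scoring regions among the 10, and in each the parts of the 5p and 3p strands within 1 score cannot be told apart.

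At the other 4 hairpins the sides had a region each. On MIR30A (chr6:72113254-72113324, minus strand, 71 nt), the precursor of miR-30a-5p and miR-30a-3p, the 5p side had a score of 110 (chr6:72113294-72113320, 27 nt) and the 3p side a score of 32 (chr6:72113234-72113280, 47 nt). The 5p score was 3.44 times the 3p score, and 13 nt of loop between them had no region. The 5p region covered miR-30a-5p whole, from 1 nt before it to 4 nt after it. The 3p region covered miR-30a-3p and then ran on for 23 nt, 20 of them past the annotated end of the hairpin. No other hairpin region went past an annotated end.

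MIR30B (chr8:135812763-135812850, minus strand, 88 nt) was alike in its balance. The region toward the 5′ side had a score of 112 (chr8:135812803-135812836, 34 nt) and that toward the 3′ side a score of 22 (chr8:135812774-135812801, 28 nt), a ratio of 5.09. They covered positions 15 to 48 and 50 to 77, with 1 nt between them.

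On MIR30C2 (chr6:72086663-72086734, minus strand, 72 nt) the 5p side had a score of 54 (chr6:72086695-72086730, 36 nt) and the 3p side a score of 12 (chr6:72086667-72086692, 26 nt), a ratio of 4.50. The 5p region ran 11 nt past the end of miR-30c-5p into the loop, to 2 nt from the 3p region. Its width of 36 nt is more than the 27 nt that MIR30C2 shares with MIR30C1, so it holds sequence that only MIR30C2 has of the pair. The 3p region began 4 nt before miR-30c-2-3p and ended at its last base.

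MIR30C1 (chr1:41222956-41223044, plus strand, 89 nt) had the order of the sides turned. Its 5p side, with the same mature sequence as that of MIR30C2, had a score of 1 (chr1:41222970-41222992, 23 nt), the lowest on the authors' scale. Its 3p side had a score of 39 (chr1:41223008-41223034, 27 nt). The 5p region was also the only one of the 7 with a known mature sequence that did not cover it to its end, stopping 2 nt short. It began 2 nt before miR-30c-5p. The 27-nt run shared with MIR30C2 starts at the first base of that strand. This region, like the 5p region of MIR30C2, thus holds bases that differ within the pair. The 3p region ran from 3 nt before miR-30c-1-3p to 2 nt after it. The 5p side thus scored higher at 3 of the 4 hairpins with a region on each side, and MIR30C1 was the exception. The 5p regions of the MIR30C pair are those where reads of the mature strand match both loci, and the part of read placement in their scores, 1 for MIR30C1 and 54 for MIR30C2, was not tested.

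**Figure D1:**
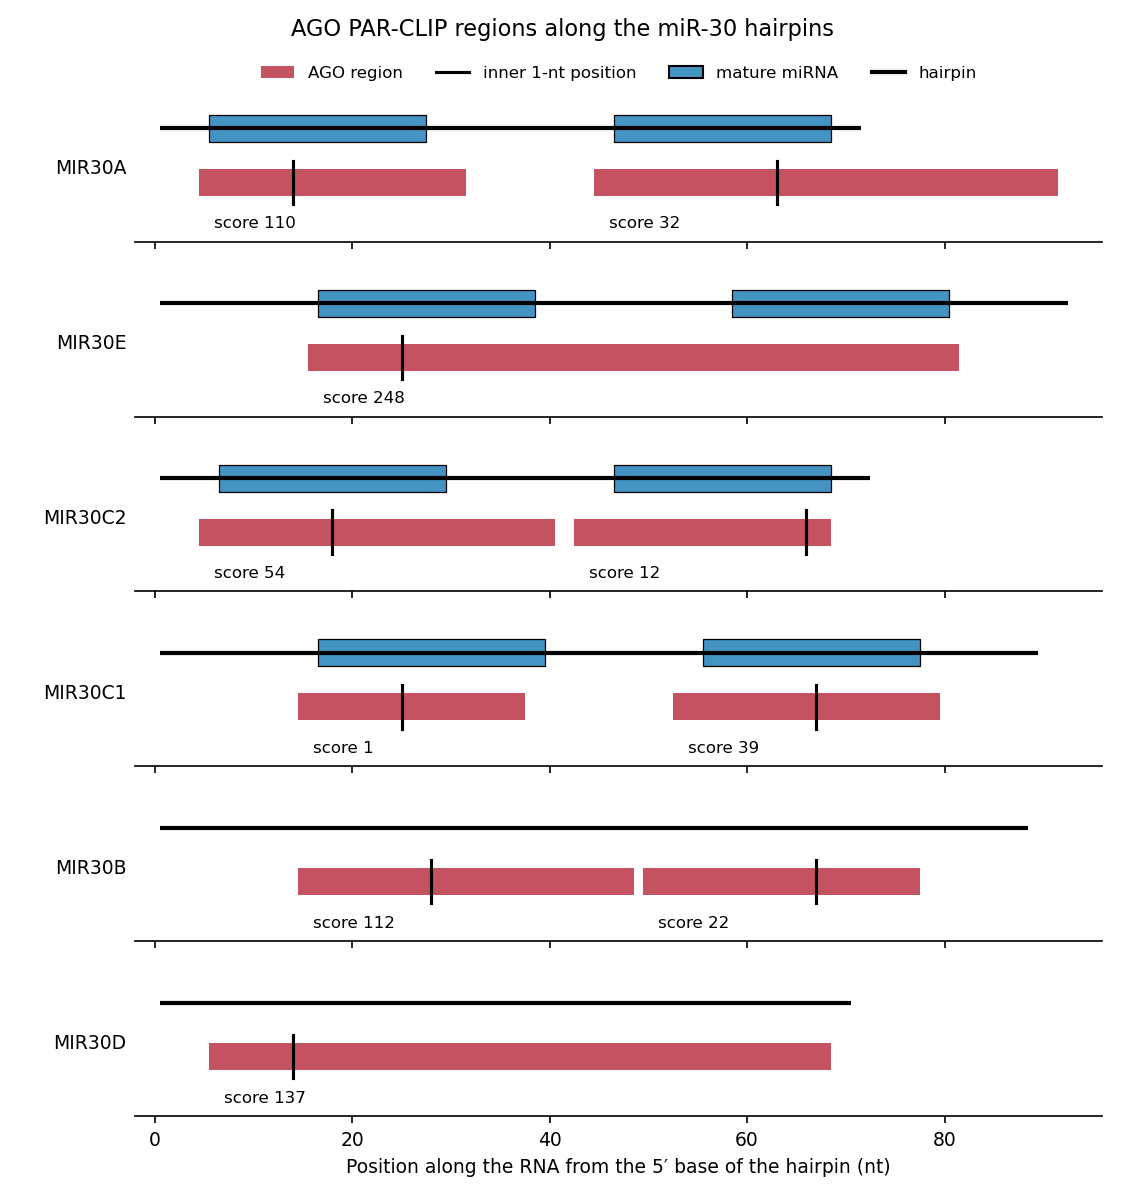
Deposited AGO regions (red bars, with their scores) along the 6 miR-30 hairpins (black lines), by position in nt from the 5′ base of each hairpin; blue boxes are mature RefSeq strands, not drawn for MIR30B and MIR30D, and black ticks are the 1-nt positions inside each region. MIR30E (score 248) and MIR30D (score 137) had 1 region across both sides of the hairpin, and the other 4 had 1 on each side, with the lowest score, 1, on the 5′ side of MIR30C1.

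Where the mature strands are known, the upstream edges of the regions lay just before their annotated starts. What set the edges was not tested. In the 7 regions on hairpins with RefSeq sequence, the first base lay 1 to 4 nt before the start of the mature strand, or of the 5p strand for MIR30E. The downstream edges varied more. They lay between 2 nt short of the mature end, on the 5p side of MIR30C1, and 23 nt past it, on the 3p side of MIR30A. The edge was within 2 nt of the mature end in 4 of 7 regions, namely that of MIR30E, both of MIR30C1 and the 3p region of MIR30C2.

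Each region carries a 1-nt position inside it, whose meaning neither the labels nor the file header states. In PAR-CLIP the crosslinked base is a 4-thiouridine in place of a U. The inner position fell on a U in 7 of 7 regions on the hairpins with RefSeq sequence. Of the 232 hairpin bases these regions covered, 68 were U, or 29.3%. If the list sets the inner position at a crosslinked base, a U was fixed in advance, so these counts are no test. The share of U at the inner positions of all regions was not computed. The hairpins are shown again with the inner positions as capitals.
MIR30A: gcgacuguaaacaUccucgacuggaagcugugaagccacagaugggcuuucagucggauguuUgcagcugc
MIR30E: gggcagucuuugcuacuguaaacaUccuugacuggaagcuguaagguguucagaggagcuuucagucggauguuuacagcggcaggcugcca
MIR30C2: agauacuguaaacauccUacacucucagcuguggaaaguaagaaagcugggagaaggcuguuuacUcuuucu
MIR30C1: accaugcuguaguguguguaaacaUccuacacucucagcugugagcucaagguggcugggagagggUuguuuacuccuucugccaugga

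On the 5p strands the inner position was base 9 of the mature sequence in MIR30A, MIR30E and MIR30C1, and base 12 in MIR30C2. All 4 lay past the seed, which ends at base 8. These 5p strands have 5 or 6 U each, and only those at bases 1 and 3 lie at or before base 8. Most of their U thus lie past the seed, and whether the inner positions avoid the seed was not tested. On the 3p strands the inner position was base 12 in MIR30C1, base 17 in MIR30A and base 20 in MIR30C2. All 7 inner positions on the hairpins with RefSeq sequence lay within a mature strand, and in the 66-nt region of MIR30E it was the 5p strand. Most of the hairpin bases that these regions covered belong to a mature strand, so this count is no test. In MIR30D the inner position was at position 14 of 70, toward the 5′ end, and in MIR30B at positions 28 and 67 of 88. These 7 bases come from related sequences and are not independent of each other.

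Set against the whole list, the hairpin regions had high scores and a median width close to that of all regions. Their scores were 248, 137, 112, 110, 54, 39, 32, 22, 12 and 1, with a median of 46.5, against a median of 3 over all regions (interquartile range 2 to 5). Scores of 100 or more belonged to 4 of the 10, at MIR30E, MIR30D, MIR30B and MIR30A, against 0.264% of all regions. The median width was 31 nt, against 32 nt over all regions and 105 nt over the 560 regions scoring 100 or more. The regions of MIR30E and MIR30D, with the highest scores, were wider, at 66 and 63 nt. Among regions within 10% of the same width, the share with a lower score was lowest for the 3p side of MIR30C2, at 97.5%, and higher for 8 others. The exception was the 5p region of MIR30C1, whose score no region is below.

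**Figure D2:**
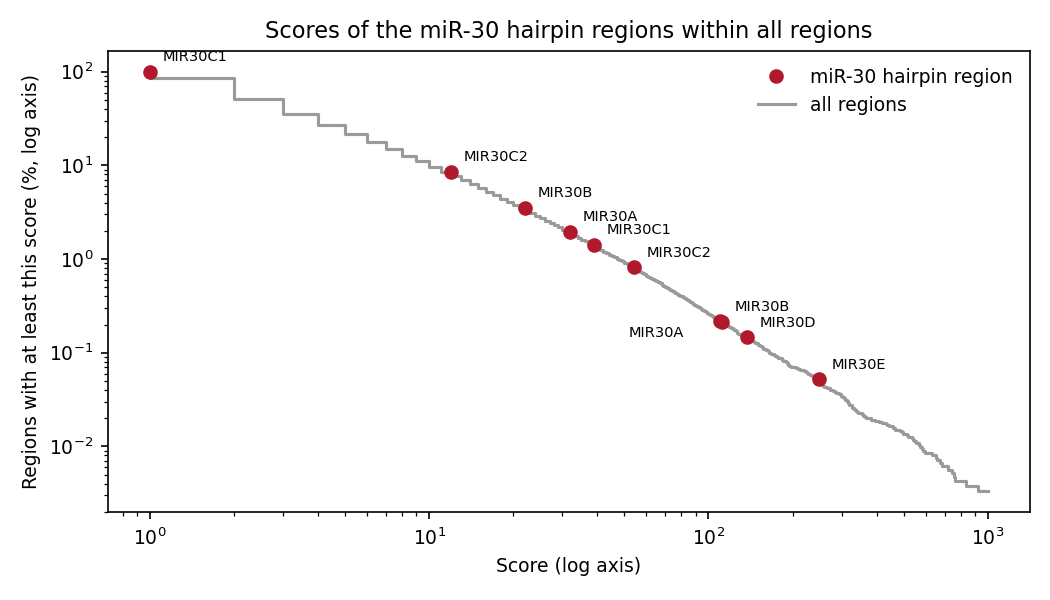
Percent of regions with at least a given score (both axes logarithmic) for all 211947 regions (grey line), with the 10 miR-30 hairpin regions marked in red. The points of MIR30E, MIR30D, MIR30B and MIR30A at scores of 110 to 248 lie where fewer than 0.264% of regions remain, and the 5p region of MIR30C1 lies at the lowest score.

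The regions were also set apart from their surroundings. The 10 hairpin regions carried 767 of the summed score of 775 in the 6 windows, or 99.0%. The windows of MIR30A, MIR30C2, MIR30B and MIR30D held no region outside the hairpin. The window of MIR30E held 2, at 1161 and 592 nt upstream, each with a score of 2. That of MIR30C1 held 3, at 767, 927 and 1515 nt downstream, with scores of 1, 1 and 2. None of these 5 flank regions exceeded a score of 2, and their median width was 29 nt. No region lay on the opposite strand in any of the 6 windows.

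A same-strand neighbour within 20 nt was found for 8 of the 10 hairpin regions, against 26.3% of all regions. In each case the neighbour was the region on the other side of the same hairpin. At most 1 other same-strand region within 2 kb was found for 7 of the 10, against 27.4% of all regions and 83 of the 560 regions scoring 100 or more (14.8%). The other 3 were the region of MIR30E, with 2 others, and both regions of MIR30C1, with 4 each, close to the median of 5 others over all regions. Regions scoring 100 or more had a median of 14 others. The pair on 1 hairpin share their precursor, so the 10 regions are not independent counts.

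The wider surroundings differed between the 3 places. MIR30E and MIR30C1 lie inside the span of NFYC in the RefSeq annotation of GRCh38.p14. NFYC encodes a subunit of the CCAAT-binding factor NF-Y, and its RefSeq promoters are on the plus strand, as the hairpins are. Within 20 kb of MIR30E there were 17 same-strand regions that overlapped no miR-30 hairpin, and the highest score among them was 27. From 13098 to 14157 nt downstream of MIR30C1 lay 8 regions with scores of 27, 10, 9, 7, 4, 4, 3 and 2. The highest of them, at chr1:41236587-41236643, was below the scores of MIR30E and of the 3p side of MIR30C1. The gene part they lie in was not analysed here.

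On chromosome 6, neither MIR30A nor MIR30C2 lies within another RefSeq gene span. Within 20 kb of MIR30A there were 3 other regions, with scores of 8, 3 and 2, the nearest 5759 nt away. MIR30C2 had 1 other region within 20 kb, with a score of 8, at 19700 nt. On chromosome 8, MIR30B and MIR30D lie within the span of ZFAT, a zinc finger gene. Within 20 kb of either, the 3 regions on these 2 hairpins were the only same-strand regions of the list.

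**Figure D3:**
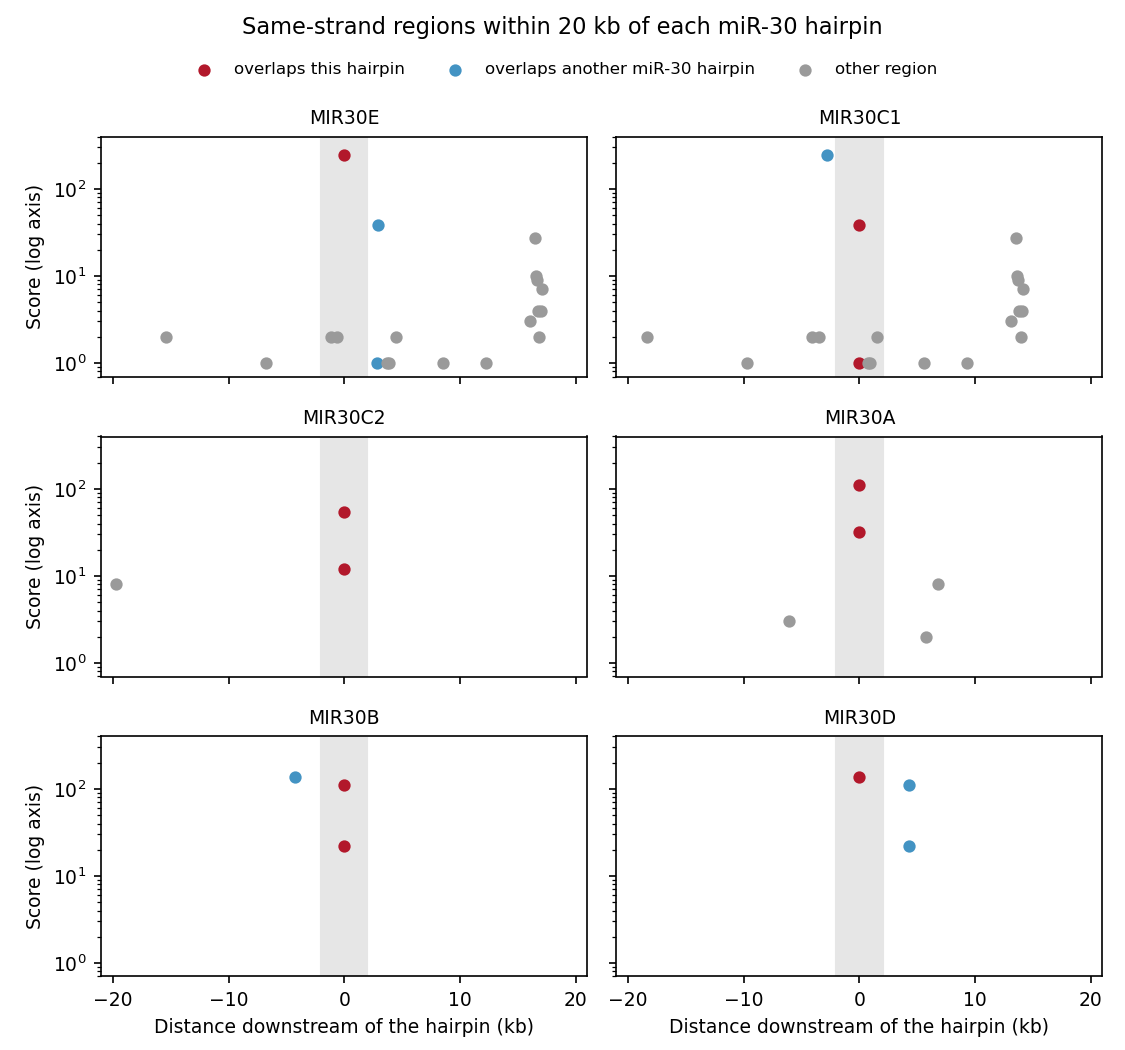
Score (logarithmic axis) of each same-strand region against its distance in kb from each miR-30 hairpin, downstream to the right, with the 2-kb flanks shaded. Regions on the hairpin (red) or on another miR-30 hairpin (blue) reached scores up to 248, while other regions (grey) reached 27 near MIR30E and MIR30C1 and 8 near MIR30A and MIR30C2, and were absent near MIR30B and MIR30D.

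Summed over its regions, each hairpin ranked in the order MIR30E with 248, MIR30A with 142, MIR30D with 137, MIR30B with 134, MIR30C2 with 66 and MIR30C1 with 40. Without a replicate or the meaning of the score, the neighbours MIR30A, MIR30D and MIR30B, within 8 of each other, cannot be ordered. Of the hairpins that share a place in the genome, MIR30E was at 248 and MIR30C1 at 40, MIR30A at 142 and MIR30C2 at 66, and MIR30D at 137 and MIR30B at 134. The sums of MIR30C2 and MIR30C1 include 5p regions where reads of miR-30c-5p match both loci. The 5p strands of MIR30A and MIR30E differ by 1 of 22 bases, a C in miR-30a-5p and a U in miR-30e-5p, which 4-thiouridine can replace. How reads were placed between MIR30A and MIR30E is not known, and its part in their sums was not tested.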

How the data were processed

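PAR-CLIP was made from 4 HEK293 libraries, 3 of AGO1 and 1 of AGO2. The submitters' processing notes name the aligner BWA, version 0.5.8c, and the build hg19. Per the file headers, the deposited list of regions belongs to the set AGO_good and passed a filter whose name holds the value 0.05. The region caller and that filter's meaning are not given in the sources used. Scores were taken as deposited by the authors, with no normalization known. Start, end and inner position were likewise taken as deposited, and are given with the first base of a chromosome as 1.

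The 6 hairpins, their flanks of 2 kb and the alternatives listed in the closing section were chosen with earlier results of these data known, and all regions in the windows are named. Hairpin and mature sequences came from RefSeq (GRCh38.p14), for 4 of the 6 hairpins, and were placed on hg19 by position within hairpins of equal length. Overlap meant at least 1 nt. A list with no value for a single library allows no test, so values are descriptions, and depth is unknown. Overlap, position, gap, neighbour and percentile functions were tested on 800 simulated regions, where all 5 gave the simulated answers. Python 3.11.15, numpy 2.4.6, pandas 2.3.3 and matplotlib 3.10.9 were used.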

Additional observations from a re-analysis of the deposited data

How the results depend on the processing

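All 20 alternatives planned for 6 results were run, and 17 gave a value within 1.5 times of that reported. For single hairpins, 41 of 66 values did. With a flank of 10 kb the summed score was 299 for MIR30C1 (44 with 2 kb), 271 for MIR30B (134) and 271 for MIR30D (137), since such a window takes in the neighbouring hairpin, and with no flank MIR30E had 1 region in place of 3 and MIR30C1 had 2 in place of 5. Of the 20, the other 3 concern the 15 regions of the windows, of which 9 remained at scores of 3 or more, since the 5 flank regions and the 5p region of MIR30C1 have scores of 1 or 2. On the opposite strand there were 0 regions with a summed score of 0, against 15 and 775. With no flank or a flank of 500 nt there were 10 regions, and with 10 kb 21. The number of hairpin regions was 9 at scores of 3 or more, and 10 when the inner position, or at least as many bases as lay outside, had to lie inside. The number on the 5p strand was 3, or 4 by inner position, since the MIR30E region covers both strands equally. The median percentile of the hairpin scores was 98.9 among all regions and between 98.6 and 99.7 against the other backgrounds. No paired analysis was possible because the list gives no value for a single library, and for the same reason no library could be left out.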

Other observations

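The regions carry ID numbers that were not used above. From 1 ID to the next on a chromosome the start did not fall in 99.3% of steps, so the numbers follow position closely. Of the numbers up to 217468, 2.54% are carried by no region. In the miR-30 windows 1 number is unused, 5880. It stands between the 5p region of MIR30C1 (start 41222970, score 1) and the 3p region (start 41223008, score 39). No number is unused among the regions of the windows on chromosome 6 or among those on chromosome 8. What the number stood for, and whether it bears on the low score of the 5p side of MIR30C1, was not tested.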
